A study of Mus musculus with 24 samples.

Results

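The 3 SoxF transcription factors Sox7, Sox17 and Sox18 and 6 endothelial marker genes, Cldn5, Pecam1, Flt1, Kdr, Cdh5 and Tek, were followed through 24 RNA-seq libraries of mouse dorsal hippocampus. These 9 genes are 9 of 19661 genes in the deposited table and were taken by name. They were selected on their measured values: Sox17 and Sox18 were lower after training while the endothelial markers were not. The training differences of the 9 genes are therefore given as a description, without a test. The differences between genotypes, the difference of the training response between genotypes and the covariation of the genes within groups were not used for the choice and were tested.

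The 24 libraries form 4 groups of 6. Baf53b+/- trained mice carried the Actl6b<tm1Grc> allele on a background labelled B6J and 129S6, and their tissue was taken 30 min after training in Object Location Memory, a task in which mice explore objects at fixed places. Baf53b+/- home cage mice carried the same allele and came straight from their cage. Wild type trained and wild type home cage mice were C57BL/6J and were handled in the same 2 ways. Actl6b encodes BAF53b, a subunit of the neuronal BAF chromatin remodelling complex. The mutant and wild type mice also differ in labelled strain background, so the allele and the background cannot be told apart. RNA came from both dorsal hippocampi, and the labels state no age. Each library has its own replicate number. Nothing in the labels says that animals were pooled, and the p-values measure the spread between these libraries.

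SoxF factors are DNA-binding proteins of endothelial cells, the cells that line blood vessels. In mouse embryos they act in part redundantly in blood and lymphatic vessel formation, with Sox17 also needed for arterial identity and Sox18 for lymphatic precursors. In the brain, endothelial cells are joined by tight junctions into the blood-brain barrier, and they make up a small part of hippocampal tissue. In whole tissue, fewer endothelial cells and less RNA per cell cannot be told apart.

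The libraries held between 28.4 M and 47.0 M reads (median 34.5 M), a depth recovered from the steps in the deposited values. Actl6b, the targeted gene, averaged 28.3 ± 1.47 RPKM in Baf53b+/- trained and 30.0 ± 1.44 RPKM in Baf53b+/- home cage libraries, against 50.8 ± 2.65 RPKM in wild type trained and 51.3 ± 1.26 RPKM in wild type home cage libraries (SD, n = 6 each). RPKM is the read count of a gene divided by its transcript length and by the library's depth. The hippocampal genes Prox1, Zbtb20, Wfs1 and Neurod6 were present in every library, at no less than 4.96 RPKM. Choroid plexus epithelium, a tissue bordering the hippocampus, was captured unevenly. Its transcript Ttr ranged from 7.78 to 4572 RPKM, and 6 libraries formed a group rich in such transcripts: 2 Baf53b+/- trained, 2 Baf53b+/- home cage, 1 wild type trained and 1 wild type home cage. Ddx3y, a Y-linked gene, was above 1 RPKM in 3 of 6 Baf53b+/- trained, 5 of 6 Baf53b+/- home cage, 3 of 6 wild type trained and 3 of 6 wild type home cage libraries.

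All 9 genes were detected in all 24 libraries. On the length-normalised RPKM scale, Cldn5 was the most abundant, with a mean of 18.5 ± 2.01 RPKM over all libraries (SD, n = 24). Cldn5 encodes claudin-5, the main tight junction protein of brain endothelium. Flt1, a VEGF receptor that also acts as a decoy, averaged 10.2 ± 0.721 RPKM. Pecam1, an adhesion molecule of endothelial junctions, averaged 7.93 ± 0.663 RPKM. Cdh5, the endothelial cadherin of adherens junctions, averaged 5.25 ± 0.540 RPKM, and Sox18 averaged 4.68 ± 0.815 RPKM. Tek, the angiopoietin receptor Tie2, averaged 3.88 ± 0.372 RPKM. Kdr, the main signalling receptor for VEGF in endothelium, averaged 3.14 ± 0.351 RPKM. Sox17 at 1.20 ± 0.225 RPKM and Sox7 at 0.771 ± 0.119 RPKM came last. The order from Cldn5 to Cdh5 and from Kdr to Sox7 held in 24 of 24 libraries. The neighbours in the middle were less separated: Cdh5 was above Sox18 in 17 of 24 libraries, Sox18 above Tek in 21 of 24 and Tek above Kdr in 22 of 24.

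Sox17 (mm9 chr1:4481009-4486494) was lower after training in both genotypes. Its lowest, median and highest values were 0.807, 0.998 and 1.21 RPKM in Baf53b+/- trained libraries, against 0.991, 1.42 and 1.59 RPKM in Baf53b+/- home cage libraries. In wild type they were 0.862, 1.11 and 1.23 RPKM in trained libraries, against 1.15, 1.29 and 1.59 RPKM in home cage libraries. The groups overlapped in both genotypes, but each of the 12 trained libraries lay below the home cage median of its genotype. The mean was 24.4% lower in Baf53b+/- mice, with 1.02 ± 0.144 RPKM in trained and 1.35 ± 0.219 RPKM in home cage libraries (SD, n = 6 each). It was 20.6% lower in wild type mice, with 1.08 ± 0.128 RPKM in trained and 1.36 ± 0.187 RPKM in home cage libraries (SD, n = 6 each). On the log2(RPKM + 0.5) scale, which understates changes of low genes, the difference of trained minus home cage was -0.28 (SE 0.08) in Baf53b+/- and -0.23 (SE 0.08) in wild type mice. Without the 6 choroid plexus rich libraries the Baf53b+/- difference was -0.17 and the wild type difference -0.22. The part of choroid plexus in the Baf53b+/- value was not tested.

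Sox18 (mm9 chr2:181404542-181406345) was also lower after training in both genotypes. In Baf53b+/- mice its lowest, median and highest values were 3.80, 4.37 and 4.53 RPKM in trained libraries, against 3.72, 4.94 and 6.54 RPKM in home cage libraries. In wild type mice they were 3.41, 3.996 and 4.44 RPKM in trained libraries, against 4.77, 5.22 and 6.02 RPKM in home cage libraries. The wild type groups did not overlap. Sox18 was chosen by this contrast, and the share of all genes whose groups separate in this way was not counted. In Baf53b+/- mice 5 of 6 home cage libraries lay above the highest trained library, and the sixth, library 2417, had the lowest value of both groups. The mean was 17.2% lower in Baf53b+/- mice, with 4.27 ± 0.305 RPKM in trained and 5.16 ± 1.05 RPKM in home cage libraries, and 24.9% lower in wild type mice, with 3.98 ± 0.368 RPKM in trained and 5.30 ± 0.453 RPKM in home cage libraries (SD, n = 6 each). The log2 difference was -0.23 (SE 0.09) in Baf53b+/- and -0.37 (SE 0.09) in wild type mice. The Baf53b+/- value was -0.31 without home cage library 2417 and -0.16 without home cage library 2401, which held the highest value. Without the 6 choroid plexus rich libraries the Baf53b+/- value was also -0.16, and the part of choroid plexus was not tested.

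Sox7 (mm9 chr14:64562543-64569569) did not share this difference. It had 0.706, 0.777 and 0.879 RPKM (lowest, median, highest) in Baf53b+/- trained libraries, against 0.600, 0.792 and 1.03 RPKM in Baf53b+/- home cage libraries. In wild type it had 0.539, 0.731 and 0.977 RPKM in trained libraries, against 0.678, 0.742 and 0.990 RPKM in home cage libraries. The trained libraries lay inside the home cage range in Baf53b+/- mice, and 2 of 6 lay below it in wild type mice. Its mean over all libraries was under the 1 RPKM minimum set for the fit across genes. With a minimum of 0.1 RPKM, its log2 difference after training was 0.01 (SE 0.08) in Baf53b+/- and -0.04 (SE 0.08) in wild type mice.

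**Figure D1:**
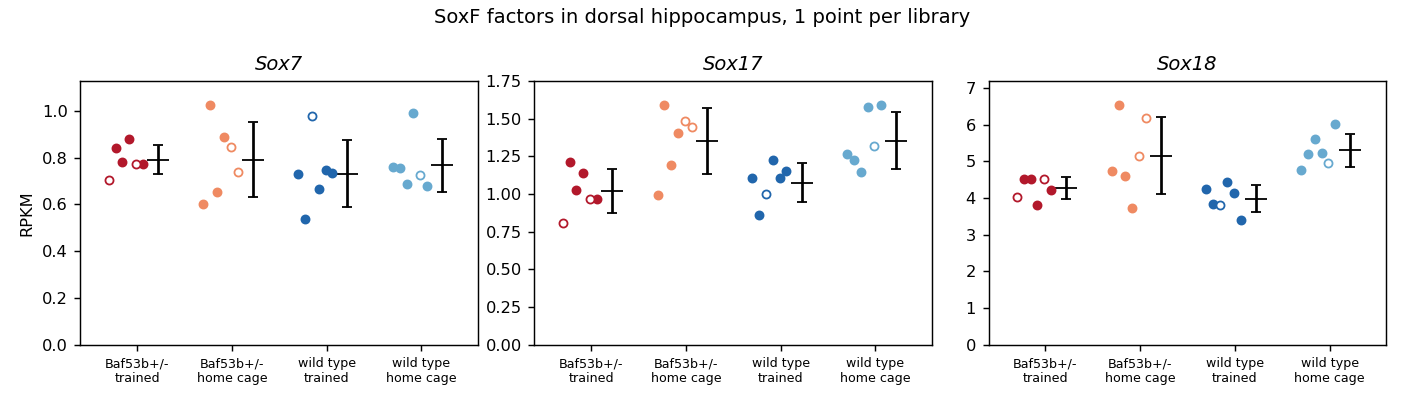
RPKM of Sox7, Sox17 and Sox18 in each library of the 4 groups (n = 6 each), with the mean and SD as bars and open points for the 6 choroid plexus rich libraries. All 12 trained libraries are below the home cage median of their genotype for Sox17 and for Sox18, while the Sox7 groups overlap widely.

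**Figure D2:**
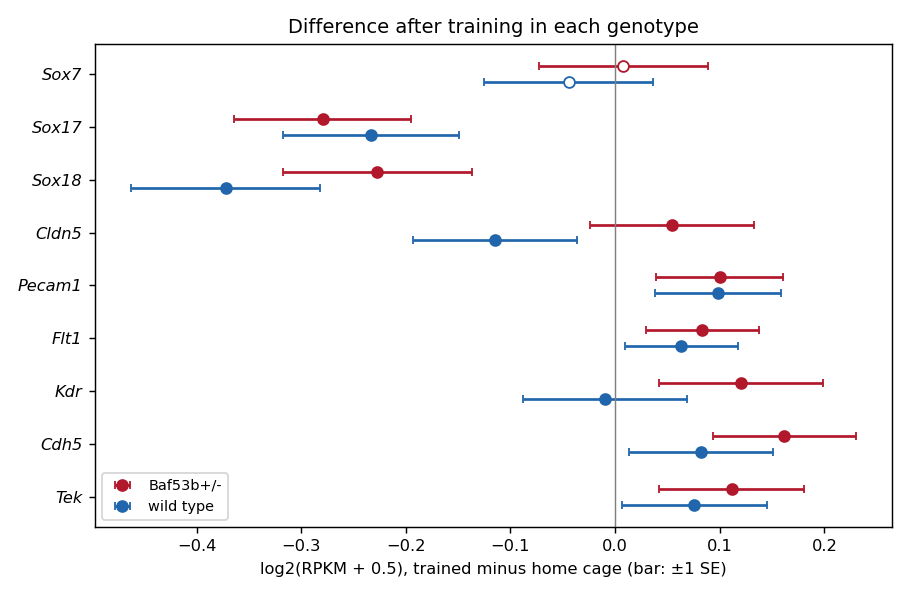
Trained minus home cage difference of log2(RPKM + 0.5) for the 9 genes in Baf53b+/- (red) and wild type (blue) mice, with bars of 1 SE. Sox17 and Sox18 lie left of zero in both genotypes, and the open points mark Sox7, fitted with the lower minimum of 0.1 RPKM.

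The 6 endothelial markers showed differences of less than 0.13 log2 units after training when averaged over genotypes. Within a genotype the largest was 0.16 (SE 0.07), for Cdh5 in Baf53b+/- mice. Cdh5 (mm9 chr8:106625525-106668402) averaged 5.68 ± 0.385 RPKM in Baf53b+/- trained and 5.04 ± 0.587 RPKM in Baf53b+/- home cage libraries. In wild type it averaged 5.31 ± 0.583 RPKM in trained and 4.97 ± 0.370 RPKM in home cage libraries (SD, n = 6 each). Its average log2 difference was 0.12 (SE 0.05). Pecam1 (mm9 chr11:106515532-106576595) averaged 8.35 ± 0.575 RPKM in Baf53b+/- trained and 7.75 ± 0.392 RPKM in Baf53b+/- home cage libraries, and 8.08 ± 0.669 RPKM in wild type trained and 7.53 ± 0.785 RPKM in wild type home cage libraries (SD, n = 6 each). Its average log2 difference was 0.10 (SE 0.04). The junction genes Cdh5 and Pecam1 were thus slightly higher in trained libraries, with groups that overlapped in both genotypes.

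The receptor genes had similar small differences. Tek (mm9 chr4:94405991-94541630) averaged 4.08 ± 0.314 RPKM in Baf53b+/- trained, 3.75 ± 0.435 RPKM in Baf53b+/- home cage, 3.95 ± 0.319 RPKM in wild type trained and 3.73 ± 0.383 RPKM in wild type home cage libraries (SD, n = 6 each). Flt1 (mm9 chr5:148373772-148537564) averaged 10.5 ± 0.584, 9.92 ± 0.774, 10.5 ± 0.712 and 10.0 ± 0.765 RPKM in the same 4 groups (SD, n = 6 each). Kdr (mm9 chr5:76329299-76374453) averaged 3.31 ± 0.384 and 2.99 ± 0.211 RPKM in Baf53b+/- trained and home cage libraries, and 3.12 ± 0.439 and 3.13 ± 0.350 RPKM in wild type trained and home cage libraries (SD, n = 6 each). The average log2 differences after training were 0.09 (SE 0.05) for Tek, 0.07 (SE 0.04) for Flt1 and 0.06 (SE 0.06) for Kdr. Groups overlapped for all 3 receptor genes in both genotypes. Kdr differed by 0.12 in Baf53b+/- mice and by 0.04 there without the choroid plexus rich libraries.

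Cldn5 (mm9 chr16:18776940-18778355) was the only marker whose average difference after training was negative, at -0.03 (SE 0.06). It had 17.5, 19.2 and 22.1 RPKM (lowest, median, highest) in Baf53b+/- trained libraries, against 17.4, 18.2 and 22.2 RPKM in Baf53b+/- home cage libraries. In wild type it had 15.9, 17.3 and 18.1 RPKM in trained libraries, against 14.3, 18.5 and 22.9 RPKM in home cage libraries. The difference was 0.05 (SE 0.08) in Baf53b+/- mice, and -0.01 there without the choroid plexus rich libraries. It was -0.11 (SE 0.08) in wild type mice, and the home cage range of wild type enclosed all 6 trained libraries.

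**Figure D3:**
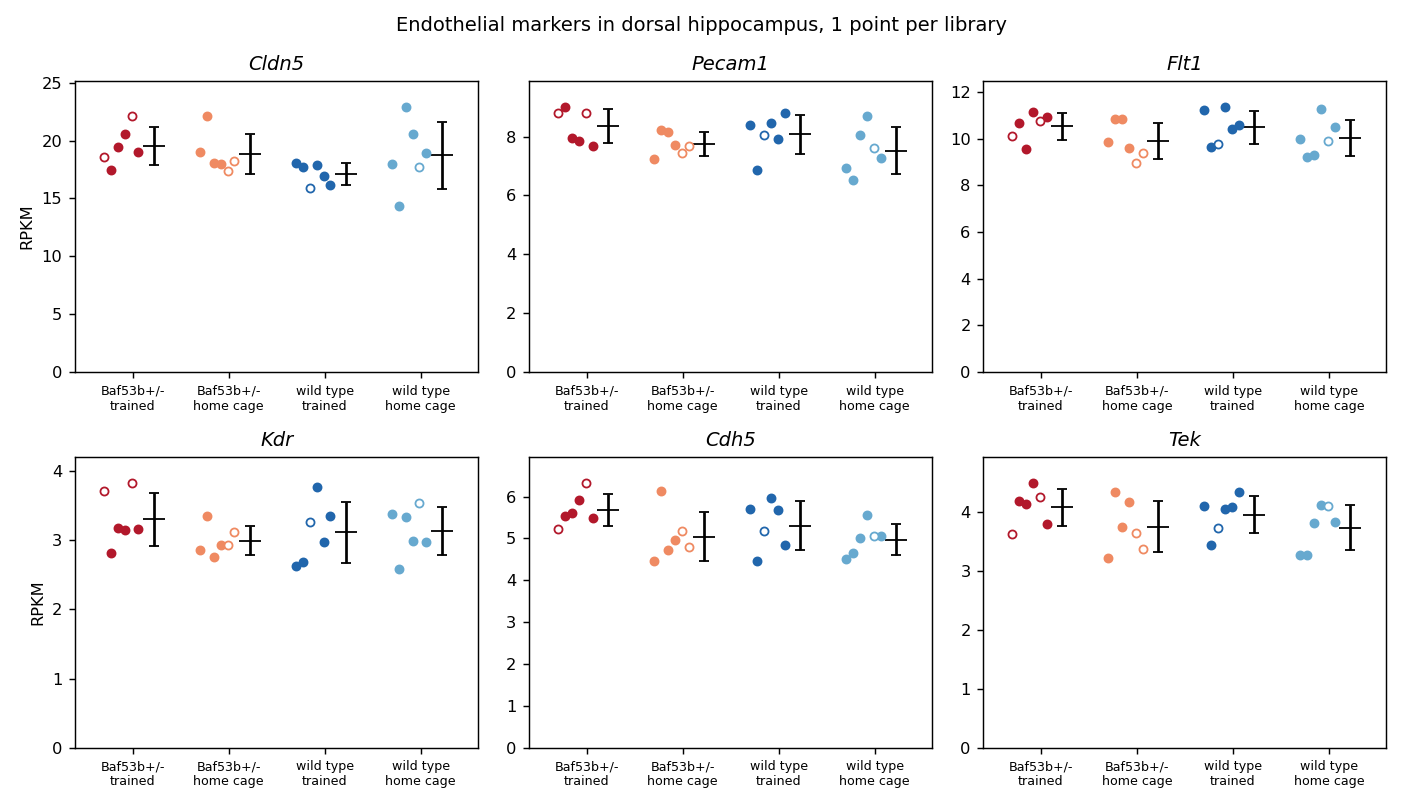
RPKM of the 6 endothelial markers in each library of the 4 groups (n = 6 each), with the mean and SD as bars and open points for the choroid plexus rich libraries. The groups overlap for every marker between trained and home cage libraries of one genotype.

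Set against the mean log2 level of the 6 markers in the same library, Sox17 and Sox18 kept their difference and Sox7 had a small one. The log2 level of Sox17 minus the marker mean was -2.34 ± 0.152 in Baf53b+/- trained and -1.96 ± 0.146 in Baf53b+/- home cage libraries, and -2.22 ± 0.0403 in wild type trained and -1.95 ± 0.140 in wild type home cage libraries (SD, n = 6 each). For Sox18 it was -0.69 ± 0.113 in Baf53b+/- trained and -0.36 ± 0.245 in Baf53b+/- home cage libraries, and -0.71 ± 0.114 in wild type trained and -0.30 ± 0.139 in wild type home cage libraries (SD, n = 6 each). The trained minus home cage difference of this relative level was -0.38 in Baf53b+/- and -0.27 in wild type mice for Sox17. It was -0.33 and -0.40 in those genotypes for Sox18, and -0.10 and -0.08 for Sox7. These values are descriptive, since both the SoxF factors and the markers entered the choice.

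A list of 29 other endothelial markers, none of them a member, gives a level of endothelial marker RNA without the chosen genes. This level cannot tell the number of endothelial cells from the RNA per cell. The list also holds Slc2a1, which itself was higher after training. The summed level of the list was 237 to 258 RPKM in Baf53b+/- trained, 218 to 251 RPKM in Baf53b+/- home cage, 218 to 250 RPKM in wild type trained and 214 to 252 RPKM in wild type home cage libraries. None of the 29 genes was at 0 throughout a group. With the mean log2 level of this list as a covariate, the average training difference was -0.31 for Sox17 and -0.34 for Sox18, against -0.26 and -0.30 without it. For Cdh5 and Pecam1 the covariate gave 0.07 and 0.05, against 0.12 and 0.10 without it. The summed level of 15 mural cell markers, genes of the pericytes and smooth muscle around vessels, was 85.7 to 99.7 RPKM in Baf53b+/- trained, 74.4 to 97.6 RPKM in Baf53b+/- home cage, 75.1 to 94.9 RPKM in wild type trained and 73.3 to 87.3 RPKM in wild type home cage libraries.

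The genotype comparisons set Baf53b+/- against wild type mice, and they were independent of the choice of members. Since the strain background differs too, they cannot show an effect of BAF53b alone. In the home cage, 0 of the 8 tested members passed the limma test (Benjamini-Hochberg adjusted p under 0.05, smallest adjusted p = 0.999) and 0 had an unadjusted p under 0.05. Over all 12399 genes 0.00807% were called, which is the single gene Actl6b, and 437 had an unadjusted p under 0.05. After training, 0 of 8 members passed the limma test (smallest adjusted p = 0.993) and 1, Cldn5, had an unadjusted p under 0.05. Again 0.00807% of all genes were called, and 458 had an unadjusted p under 0.05. For the difference of the training response between genotypes, 0 of 8 members passed in the same limma fit (smallest adjusted p = 0.985) and 0 had an unadjusted p under 0.05. Here 0% of all genes were called, with 309 at an unadjusted p under 0.05.

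For the SoxF factors the intervals show how large a genotype difference these data allow. Sox17 differed between Baf53b+/- and wild type mice by -0.01 log2 units in the home cage (95% interval -0.18 to 0.17) and by -0.05 after training (-0.23 to 0.12). Sox18 differed by -0.05 in the home cage (-0.24 to 0.13) and by 0.09 after training (-0.09 to 0.28). The training response of Baf53b+/- minus that of wild type mice was -0.05 for Sox17 (-0.29 to 0.20) and 0.15 for Sox18 (-0.12 to 0.41). For Sox7, an exact two-sided permutation test of log2 values between the 6 Baf53b+/- and 6 wild type libraries gave p = 0.794 in the home cage and p = 0.338 after training, where the smallest p the design allows is 0.00216.

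Cldn5 had the largest genotype difference among the tested members. After training it was higher in Baf53b+/- than in wild type mice, with 19.5 ± 1.63 RPKM in Baf53b+/- trained and 17.1 ± 0.939 RPKM in wild type trained libraries (SD, n = 6 each). The log2 difference was 0.18 (SE 0.08, 95% interval 0.02 to 0.35), and it did not pass the limma test adjusted over all genes (adjusted p = 0.993). In all, 5 of 6 Baf53b+/- trained libraries lay above the highest wild type trained library. In the home cage the means were 18.8 ± 1.73 RPKM in Baf53b+/- and 18.7 ± 2.88 RPKM in wild type libraries (SD, n = 6 each).

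Within groups, the 9 genes varied together to unequal degrees. After each group's mean was removed from the log2 values, all 36 pairs had a positive Pearson r over the 24 libraries, from 0.03 to 0.72 with a median of 0.38. This did not hold without Baf53b+/- home cage library 2401. There r was -0.22 for Sox7 with Sox18, -0.20 for Sox18 with Tek and -0.16 for Sox7 with Cldn5. It was -0.04 for Sox17 with Cldn5, -0.03 for Sox18 with Flt1 and -0.03 for Sox17 with Kdr, and positive for the other pairs. Leaving out other libraries also gave negative values. Without wild type trained library 2407, r was -0.06 for Sox17 with Kdr and -0.01 for Sox7 with Kdr. Without wild type trained library 2421, r was -0.04 for Flt1 with Kdr. Over all 24 libraries, the median r of a member with the 12391 other genes was between -0.02 (Sox17) and 0.09 (Pecam1). Of those genes, 46.7% to 61.5% had a positive r with a member. The lowest pairs were ordinary on that scale: among 12399 genes ranked by their r with Kdr, Sox17 was at 6457, and by their r with Tek, Sox18 was at 6227. Tek was at 19 by its r with Cdh5. Of the 36 pairs, 6 passed a within-group permutation test adjusted by Benjamini-Hochberg over the 36 pairs, and 4 of these also passed with Spearman's rho. The libraries share their depth and their content of vessels, which can move all such genes together, and the part of either was not tested.

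Cdh5 and Tek formed the closest pair (r = 0.72, permutation p = 0.00023, adjusted p = 0.00828; rho = 0.72, permutation p = 0.0003, adjusted p = 0.0108), with r = 0.66 when the 2 libraries farthest from the median of Cdh5 were left out. Sox17 followed both of these genes. Its r was 0.67 with Tek (permutation p = 0.00134, adjusted p = 0.0161; rho = 0.65, permutation p = 0.00275, adjusted p = 0.033; r = 0.65 without the 2 farthest libraries). With Cdh5 it was 0.66 (permutation p = 0.00129, adjusted p = 0.0161; rho = 0.65, permutation p = 0.00135, adjusted p = 0.0243; r = 0.65 without the 2 farthest libraries). Sox7 leaned the same way, in pairs that did not pass. Its r was 0.58 with Cdh5 (adjusted permutation p = 0.0522, r = 0.28 without the 2 farthest libraries). With Tek it was 0.52 (adjusted permutation p = 0.0648, r = 0.31 without the 2 farthest libraries). Pecam1 and Tek had r = 0.62 (permutation p = 0.00235, adjusted p = 0.0211; rho = 0.59, permutation p = 0.00416, adjusted p = 0.0374; r = 0.46 without the 2 farthest libraries).

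Among the SoxF factors themselves, Sox7 and Sox17 had r = 0.60 (permutation p = 0.00453, adjusted p = 0.0326; rho = 0.54, permutation p = 0.0134, adjusted p = 0.0774), which was 0.46 without the 2 farthest libraries. Sox18 formed no pair that passed. Its highest r was 0.49, with Cdh5 (permutation p = 0.0375, adjusted p = 0.104; rho = 0.52, permutation p = 0.0176, adjusted p = 0.0792; r = 0.39 without the 2 farthest libraries). That pair passed in 1 of 24 fits with a library left out, the fit without Baf53b+/- home cage library 2417 (adjusted permutation p = 0.0482). Its r was 0.34 with Sox17 (permutation p = 0.186, adjusted p = 0.279; rho = 0.41, permutation p = 0.0752, adjusted p = 0.159; r = 0.27 without the 2 farthest libraries) and 0.04 with Sox7 (permutation p = 0.88, adjusted p = 0.905; rho = -0.08, permutation p = 0.747, adjusted p = 0.83; r = -0.29 without the 2 farthest libraries). With Tek it was 0.03 (permutation p = 0.921, adjusted p = 0.921; rho = 0.08, permutation p = 0.758, adjusted p = 0.83; r = -0.11 without the 2 farthest libraries). Whether the correlations of Sox17 and Sox18 with Tek differ from each other was not tested. Cldn5 and Sox17 had r = 0.08 (permutation p = 0.725, adjusted p = 0.816; rho = 0.13, permutation p = 0.573, adjusted p = 0.764; r = 0.03 without the 2 farthest libraries). The last pair to pass was Cldn5 and Cdh5 (r = 0.52, permutation p = 0.00765, adjusted p = 0.0459; rho = 0.53, permutation p = 0.014, adjusted p = 0.0774; r = 0.61 without the 2 farthest libraries).

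Single libraries carried part of this covariation. Baf53b+/- home cage library 2401 had the highest value of its group for 8 of the 9 genes, and wild type trained library 2407 had the lowest of its group for 6 of 9. When each library was left out in turn, the number of pairs that passed ran from 2, without 2407, to 11, without wild type home cage library 2405. It was 3 without 2401 and 3 without wild type home cage library 2418. It was 10 without Baf53b+/- home cage library 2417 and 10 without Baf53b+/- trained library 2435. Cdh5 with Tek passed in all 24 of these fits. Sox17 with Tek and Sox17 with Cdh5 each passed in all but the fit without 2407, where the adjusted p of both was 0.0661. The calls of the other pairs ended more often, in 4 of 24 fits for Pecam1 with Tek, in 5 of 24 for Sox7 with Sox17 and in 12 of 24 for Cldn5 with Cdh5. Sox7 with Cdh5 passed in 6 of 24 fits with a library left out, and Sox7 with Tek in 1 of 24. Without the 6 choroid plexus rich libraries 7 pairs passed (n = 18), 5 of them shared with the 6 above. The others were Sox7 with Cdh5 (r = 0.72) and Sox7 with Tek (r = 0.75), each at an adjusted permutation p of 0.0266. Cldn5 with Cdh5 did not pass there (r = 0.50, adjusted p = 0.0886).

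**Figure D4:**
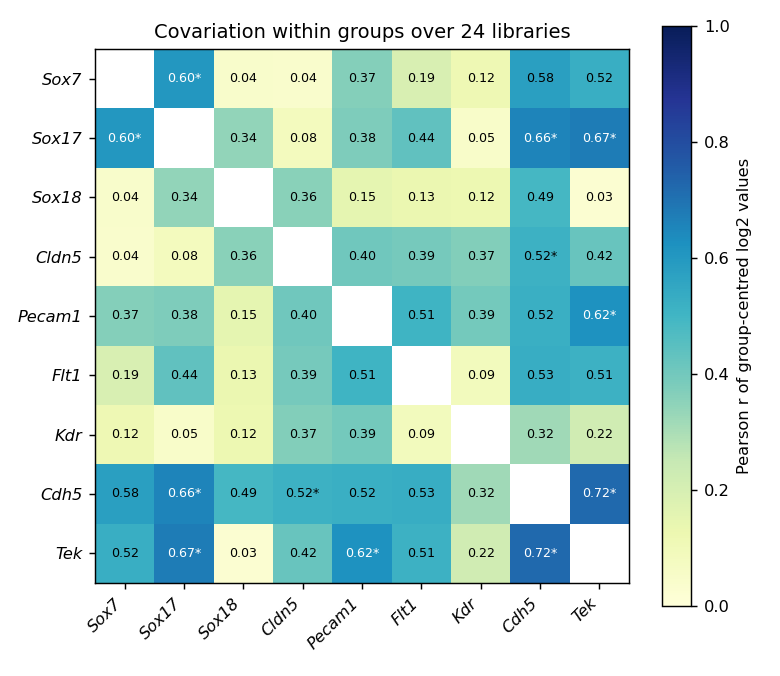
Pearson r between the 9 genes over 24 libraries, from log2(RPKM + 0.5) values with each group's mean removed, with a star where the adjusted permutation p is under 0.05. The starred pairs gather on Cdh5, Tek and Sox17, and no pair of Sox18 has a star.

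The 250 bases before the transcription start of Tek, the marker with the highest r with Sox17, and of Cldn5, the marker on the tight junction with r = 0.08, are shown to set their sequences side by side. They come from RefSeq on GRCm38.p6, where Tek's stretch is chr4:94739039-94739288 and Cldn5's is chr16:18776597-18776846, both on the plus strand, written 5′ to 3′. Of the 9 genes 4 had an entry in that table, and Sox7, Sox17, Sox18, Pecam1 and Cdh5 are named only. Capitals mark matches on either strand to GGAA, the core of ETS factor sites, and to ACAAT or ACAAAG, short cores of SOX factor sites.
Tek: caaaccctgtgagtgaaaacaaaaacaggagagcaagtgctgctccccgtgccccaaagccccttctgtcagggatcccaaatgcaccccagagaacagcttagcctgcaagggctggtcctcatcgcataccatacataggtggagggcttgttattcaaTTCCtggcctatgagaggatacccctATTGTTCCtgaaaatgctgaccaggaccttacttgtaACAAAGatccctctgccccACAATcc
Cldn5: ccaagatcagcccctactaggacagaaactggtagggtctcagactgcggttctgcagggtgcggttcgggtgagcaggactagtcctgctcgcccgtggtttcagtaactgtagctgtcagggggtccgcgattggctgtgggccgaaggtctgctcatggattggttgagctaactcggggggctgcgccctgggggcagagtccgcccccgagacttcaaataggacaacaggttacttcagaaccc
Tek's stretch holds 2 matches to GGAA, 2 to ACAAT and 1 to ACAAAG, with a GGAA match and an ACAAT match on the minus strand sharing 1 base. The Cldn5 stretch holds 0 matches to any of the 3. Kdr and Flt1 each have 4 matches to GGAA and 0 to either SOX core, and Flt1 has 1 match to TGACGTCA, the palindrome bound by CREB. The r with Sox17 was 0.05 for Kdr, lower than for Cldn5, and 0.44 for Flt1. No match to the AP-1 motif TGANTCA is in any of the 4 stretches. Among 32851 promoters of the same length from 27025 genes, 93.4% held GGAA, 27.7% held ACAAT, 16.5% held ACAAAG, 1.55% held TGACGTCA and 6.75% held TGANTCA. A match to so short a core is a description of the letters and not a binding site. Whether these sequences bear on the correlations was not tested.

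The genes most like each SoxF factor across the 24 libraries, by Pearson r of group-centred log2 values, are given as a description. For Sox17 they were A730008H23Rik (r = 0.84), Podxl (0.78), Acvrl1 (0.78), Vwa1 (0.77), Clic5 (0.75), Esyt1 (0.75), Ushbp1 (0.75) and Arap3 (0.73). Podxl, a surface sialomucin, was on the list of other endothelial markers, and Acvrl1 encodes the endothelial receptor ALK1. For Sox18 they were Ehd2 (0.78), Ghdc (0.69), Lst1 (0.67), Ddx39 (0.67), Tmem161a (0.67), Jmjd8 (0.66), Acp1 (0.66) and Zfp36l2 (0.65). For Sox7 they were Snord19 (0.68), H2-D1 (0.67), H2-K1 (0.64), Ecscr (0.63), B2m (0.63), H2-Q4 (0.63), Plcg1 (0.60) and Boc (0.60). H2-D1, H2-K1 and H2-Q4 encode heavy chains of MHC class I and B2m their light chain, and Ecscr was on the list of other endothelial markers. For Cldn5 the leading genes were Tgfbr2 (0.76), a TGF-beta receptor, Slc24a6 (0.69) and Tln1 (0.69). Tgfbr2 with Cldn5 had r = 0.91 over the 18 libraries outside the choroid plexus rich group.

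Beyond the 9 genes, 6 lists of vascular genes held 109 genes in all, of which 98 were tested. These lists were chosen with earlier results of these data known. Their counts after training are therefore a description and do not test the lists against all genes. On the average over both genotypes, limma with Benjamini-Hochberg adjustment over 12399 genes called 4 of 98 higher after training and 2 of 98 lower, beside 3.26% of all genes higher and 0.911% lower. Of the 98, 22 had an unadjusted p under 0.05, and of all 12399 genes 2086 did. The median log2 difference of the 98 was 0.05, beside 0.004 for all genes tested, with 74 positive and 24 negative. Of all genes tested 52.7% were positive. Vascular genes can move together between libraries, so their signs are not independent of each other. In Baf53b+/- mice 2 of 98 were higher and 1 lower, beside 0.887% of all genes higher and 0.145% lower. In wild type mice 3 of 98 were higher and 1 lower, beside 0.96% of all genes higher and 0.121% lower. Between genotypes 0 of 98 passed in the home cage and 0 after training, where 4 and 5 had an unadjusted p under 0.05.

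On that average, 2 of 18 tested endothelial transcription factors were higher and 1 lower, 1 of 11 vascular Notch genes was higher and 1 lower, and 1 of 29 other endothelial markers was higher. Klf2, a transcription factor that responds to blood flow, averaged 5.36 ± 0.389 RPKM in Baf53b+/- trained and 2.92 ± 0.366 RPKM in Baf53b+/- home cage libraries, and 5.16 ± 0.610 RPKM in wild type trained and 3.16 ± 0.527 RPKM in wild type home cage libraries (SD, n = 6 each). Its groups did not overlap in either genotype, and its average log2 difference was 0.71 (SE 0.06, limma adjusted p = 1.86e-08). The related factor Klf4 averaged 2.56 ± 0.229 RPKM in Baf53b+/- trained and 1.68 ± 0.286 RPKM in Baf53b+/- home cage libraries, and 2.59 ± 0.466 RPKM in wild type trained and 1.73 ± 0.211 RPKM in wild type home cage libraries (SD, n = 6 each). It did not overlap either (log2 difference 0.48, SE 0.07, limma adjusted p = 6.05e-05). For both genes, the share of all genes whose groups separate in this way was not counted. Other cells of the hippocampus can also express Klf2, Klf4, Hes1 and other genes of the vascular lists. Prox1, used above as a hippocampal gene, is on the list of endothelial transcription factors. Neither the RNA of these genes nor the counts and medians of the lists can therefore be assigned to endothelium here.

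Hes1, a repressor and Notch target, fell to 4.74 ± 0.585 RPKM in Baf53b+/- trained libraries, against 6.61 ± 0.507 RPKM in Baf53b+/- home cage libraries, and to 4.76 ± 0.670 RPKM in wild type trained libraries, against 6.42 ± 0.697 RPKM in wild type home cage libraries (SD, n = 6 each). Its average log2 difference was -0.42 (SE 0.06, limma adjusted p = 4.56e-05). The Notch ligand gene Dll1 rose by 0.18 log2 units (SE 0.04, limma adjusted p = 0.00751). Slc2a1, the glucose transporter of the blood-brain barrier, also rose by 0.18 (SE 0.03, limma adjusted p = 0.00167), with means of 36.1 ± 2.26 RPKM in Baf53b+/- trained and 32.2 ± 1.51 RPKM in Baf53b+/- home cage libraries, and 35.3 ± 1.45 RPKM in wild type trained and 31.0 ± 2.29 RPKM in wild type home cage libraries (SD, n = 6 each). Slc2a1 was the 1 called gene among the 29 other endothelial markers. Foxq1, a forkhead factor of brain endothelium, fell by 0.18 (SE 0.05, limma adjusted p = 0.0365), a call that ended without any one of 12 libraries and without the choroid plexus rich libraries. The lists of the VEGF and angiopoietin pathway (11 tested), of Wnt and beta-catenin signalling at the barrier (17 tested) and of mural cells (13 tested) held 0 called genes in the limma test, with 1, 4 and 2 at an unadjusted p under 0.05. Their leading genes by p were Ptprb (0.11, limma adjusted p = 0.210) and Vegfa (0.07, limma adjusted p = 0.486) for VEGF and angiopoietin, Axin2 (0.09, limma adjusted p = 0.133) and Lrp6 (0.10, limma adjusted p = 0.134) for Wnt, and Myh11 (0.22, limma adjusted p = 0.156) and Acta2 (0.27, limma adjusted p = 0.181) for mural cells, as log2 differences.

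**Figure D5:**
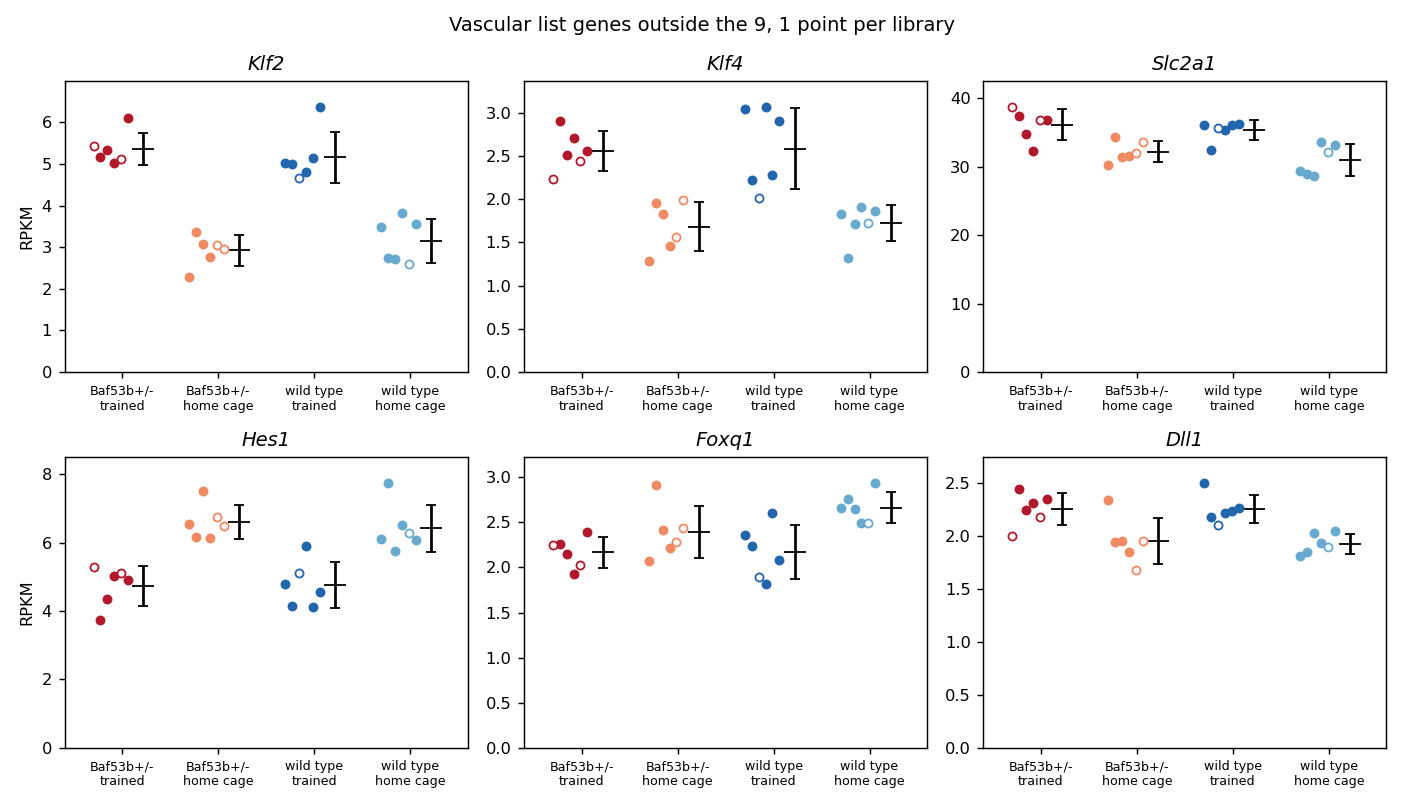
RPKM of the 6 genes of the vascular lists that passed the average training test, in each library of the 4 groups (n = 6 each), with the mean and SD as bars and open points for the choroid plexus rich libraries. Klf2 and Klf4 separate trained from home cage libraries in both genotypes, while Foxq1 groups overlap in both.

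Outside the SoxF group, 12 of 13 other Sox genes were tested. Sox11, a SoxC factor of immature neurons, rose by 0.30 log2 units after training (SE 0.05, limma adjusted p = 0.000198). Sox8, a SoxE factor of glia, rose by 0.20 (SE 0.06, limma adjusted p = 0.0432), a call that ended in 21 of 36 alternatives. None of the other 10 tested in this list passed in either direction. Among markers of other cell types, the oligodendrocyte lineage gene Gpr17 rose by 0.25 (limma adjusted p = 0.028), a call that ended in 5 of 36 alternatives, among them the fits without the choroid plexus rich libraries and with the other endothelial markers as a covariate. Without wild type trained library 2436, Baf53b+/- trained library 2416 or Baf53b+/- trained library 2429 it ended too, and over all alternatives the limma adjusted p reached 0.0949. Of the 5 blood cell genes listed only 1 was tested, so that list says little about blood. The astrocyte, microglia, meningeal, blood and choroid plexus lists held 0 called genes, with 2 microglia genes and none of the others at an unadjusted p under 0.05. The microglial receptor gene Cx3cr1 had the smallest p of these, with a log2 difference of -0.10 (limma adjusted p = 0.0811), and it passed in 4 of 36 alternatives. The microglia list as a whole did not share this direction. Of its 7 genes 4 were positive and 3 negative, with a median log2 difference of 0.01.

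Read numbers set the precision for the SoxF factors. Taking the longest coding transcript as the gene length, a median library held about 84 reads of Sox7, 132 of Sox17 and 243 of Sox18, against 890 of Cldn5 and 2361 of Flt1. Counting error alone then gives a coefficient of variation of 10.9% for Sox7, 8.70% for Sox17 and 6.41% for Sox18. The mean coefficient of variation within groups was 15.6% for Sox7, 14.0% for Sox17 and 11.3% for Sox18. For Cldn5 these values were 3.35% and 9.61%. The read numbers are approximate and cover counting error only.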

How the data were processed

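RNA from dorsal hippocampus was made into libraries with the TruSeq v2 kit and sequenced as single-end reads, per the labels' protocols. The submitters' processing notes name CASAVA 1.8.2, Bowtie 0.12.8 and mm9. The authors deposited 1 table of RPKM values for 24 samples, with 19661 genes, and their treatment of multi-mapped reads is not stated in the labels. Libraries were pooled in 4 multiplex libraries, per the labels, with membership not stated, so no sequencing batch could be fitted or split.

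From the deposited values, log2(RPKM + 0.5) was computed and the 12399 genes averaging 1 RPKM or more over all libraries were tested with limma 3.58.1 in R 4.3.3. All 4 groups entered 1 model with empirical Bayes moderation (trend and robust), and p-values were adjusted by Benjamini-Hochberg with a threshold of 0.05. The fit was tested on simulated data. Sox7 lay below the minimum and was compared by exact permutation. Covariation used 100000 permutations within groups. The choroid plexus rich libraries are those above the widest gap in the mean log2 level of 15 choroid plexus genes.

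Depth was recovered from 971 single-exon genes, whose low values should be whole multiples of 1 read. Between 42.6% and 51.1% of such values came out whole within 0.05 read per library, against at most 8.82% for the median of other trial depths. No count test was run, since gene lengths are not in the table.

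The 9 members and the gene lists were chosen with earlier results of these data known. Named genes were the members, up to 5 called or 2 uncalled genes of each list by p, Hes1, Klf2, Klf4, Actl6b, and the 8 genes most like Sox7, Sox17, Sox18 and Cldn5. For markers of other cell types, uncalled genes other than Cx3cr1 are given as counts. The 4 hippocampal genes were added after the values were seen. Alternatives were other pseudocounts, minimums, scalings, covariates and left-out libraries.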

Additional observations from a re-analysis of the deposited data

Results flagged for a closer look

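In each group of 6 libraries, the highest and lowest value of each of the 9 genes was set against its nearest neighbour. Of 36 groups looked at, 2 held a library whose gap to the nearest other exceeded Dixon's 95% critical value. Chance flags about 1 group in 20.

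Sox7 was at 0.990 RPKM in wild type home cage library 2418, while the other 5 libraries of that group lay between 0.678 and 0.761 RPKM. That library was the highest of its group for 5 of the 9 genes.

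Cldn5 was at 22.2 RPKM in Baf53b+/- home cage library 2401, while the other 5 libraries of that group lay between 17.4 and 19.1 RPKM. That library was the highest of its group for 8 of the 9 genes.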

How the results depend on the processing

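The counts of members called between genotypes and for the interaction stayed at 0 under all 37, 37 and 36 alternatives run. Of 880 such single values, 55 changed sign and 0 passed, with a smallest adjusted p of 0.819 in limma. The average training difference ran from -0.34 to -0.20 for Sox17 and from -0.34 to -0.27 for Sox18, the extremes for Sox17 coming from a pseudocount of 0.1 and from leaving out the choroid plexus rich libraries. Of 880 training values of members, 7 changed sign. Vascular genes called lower on average (2) numbered 1 with no minimum, with a minimum of 3 RPKM, without the choroid plexus rich libraries, and with sex or the other endothelial markers as a covariate, and 1 to 2 when single libraries were left out. Those called higher on average (4) numbered 2 with a minimum of 3 RPKM. In Baf53b+/- mice those called higher (2) numbered 1 with a minimum of 3 RPKM, and in wild type mice those called higher (3) numbered 1 when only the 2 groups compared were fitted. Of these 3 wild type calls, that of Slc2a1 (limma adjusted p = 0.0492) ended in 22 of 37 alternatives. Among them were 16 of the 24 fits with a single library left out and the fit without the choroid plexus rich libraries. In wild type mice those called lower (1) numbered 0 without the choroid plexus rich libraries and 1 to 2 when single libraries were left out, with 2 without wild type trained library 2433. The cause of these changes was not tested, except that the minimum of 3 RPKM leaves fewer genes. Pairs of members called (6) ran from 2 to 11 when single libraries were left out, an alternative added after the data were seen. Sox17 has no value with a minimum of 3 RPKM, and Sox7 has one only with a lower minimum or none. The fit of only the compared groups does not apply to the average or the interaction. No paired analysis was possible because the groups share no replicate numbers. The depth limits Sox7 and Sox17 most.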
